A study of Mus musculus with 4 samples.

Results

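Complement components were followed across the cell classes of the mouse brain, and between brains with and without a full dose of the CSF-1 receptor gene, Csf1r. The 9 genes, chosen by symbol, were C1qa, C1qb, C1qc, C3, C4b, C3ar1, C5ar1, Itgam and Csmd1, out of 31053 genes in the count matrices. Single-nucleus RNA-seq was performed on brains of 2-month-old female C57/BL6 mice, untreated, with 2 WT mice (WT1 and WT2) and 2 Csf1r+/- mice (Het1 and Het2). Csf1r+/- mice carry the mutation in every cell of the body rather than in 1 cell type, and the labels describe them as free of symptoms at this age. Myelin debris was removed with beads before the nuclei were loaded, and each library came from 1 mouse.

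Complement is a set of secreted proteins and their receptors that tags particles for removal. In the classical pathway C1q, built from the A, B and C chains, binds a surface and leads through C4 to cleavage of C3. C3 fragments are read by complement receptor 3, whose alpha chain CD11b is encoded by Itgam, and the small fragments C3a and C5a by the receptors encoded by C3ar1 and C5ar1. CSMD1 is a large membrane protein of neurons that limits complement activation. In the brain, microglia are the known main source of C1q, and C1q and C3 are known for tagging synapses that microglia then remove.

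A total of 52132 nuclei passed the filters (16114 in WT1, 15247 in WT2, 9589 in Het1 and 11182 in Het2), with median counts of 4636 to 7454 unique molecular identifiers (UMIs, 1 per captured RNA molecule) per nucleus. WT2 stood apart, with the highest median share of mitochondrial UMIs (0.703% against 0.147 to 0.278%) and oligodendrocytes at 8.19% of its nuclei against 2.14 to 4.76%. Pairs of libraries shared at most 68 nucleus barcodes. Nuclei were clustered without the complement genes and classes were named from marker genes, so each class is "like" the cell type whose name it carries. Microglia made up 648 nuclei (178, 161, 167 and 142, in the order WT1, WT2, Het1, Het2), or 1.24% of all. All 13 microglia markers were detected in them, and of the 6 border macrophage markers Pf4, Cd163, Lyve1 and Ms4a7 were at 0. The other classes held 26668 excitatory neurons, 15060 inhibitory neurons, 2363 oligodendrocytes, 451 endothelial cells, 148 oligodendrocyte precursors and 56 astrocytes. A further 2304 nuclei were other neurons and 4434 were left unnamed. The oligodendrocytes of WT2 clustered largely apart from those of the other libraries. WT2 held 623 nuclei of a cluster of 652 and 488 of one of 494, but 4 of one of 521 and 6 of one of 442. All oligodendrocyte clusters were taken as 1 class in the contrasts. Levels are given as CPM, the UMIs of a gene scaled to a total of 1000000 UMIs of the class in that library, and differences as log2 fold changes of Csf1r+/- over WT with their standard error (SE).

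Csf1r itself, the check of the genotype, stood in microglia at 886 CPM in WT1, 857 in WT2, 612 in Het1 and 594 in Het2. Both Csf1r+/- libraries were below both WT libraries, with a log2 fold change of -0.54 (SE 0.22, unadjusted p = 0.0229, adjusted p = 0.389 by edgeR's quasi-likelihood test). The gap had the direction of the labels, although it did not pass the adjusted threshold. Counts per gene cannot tell transcripts of the intact allele from those of the mutated one.

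The 9 genes fell into 4 patterns of expression, as the plot of levels by class and library shows. The 3 C1q chains and the receptors Itgam, C3ar1 and C5ar1 had their highest CPM in microglia or in a small unnamed cluster with border macrophage and microglia markers. C4b was sparse and C3 was hardly detected. Csmd1 was highest in neurons and oligodendrocyte precursors, and was abundant enough there to be seen in almost every nucleus.

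**Figure D1:**
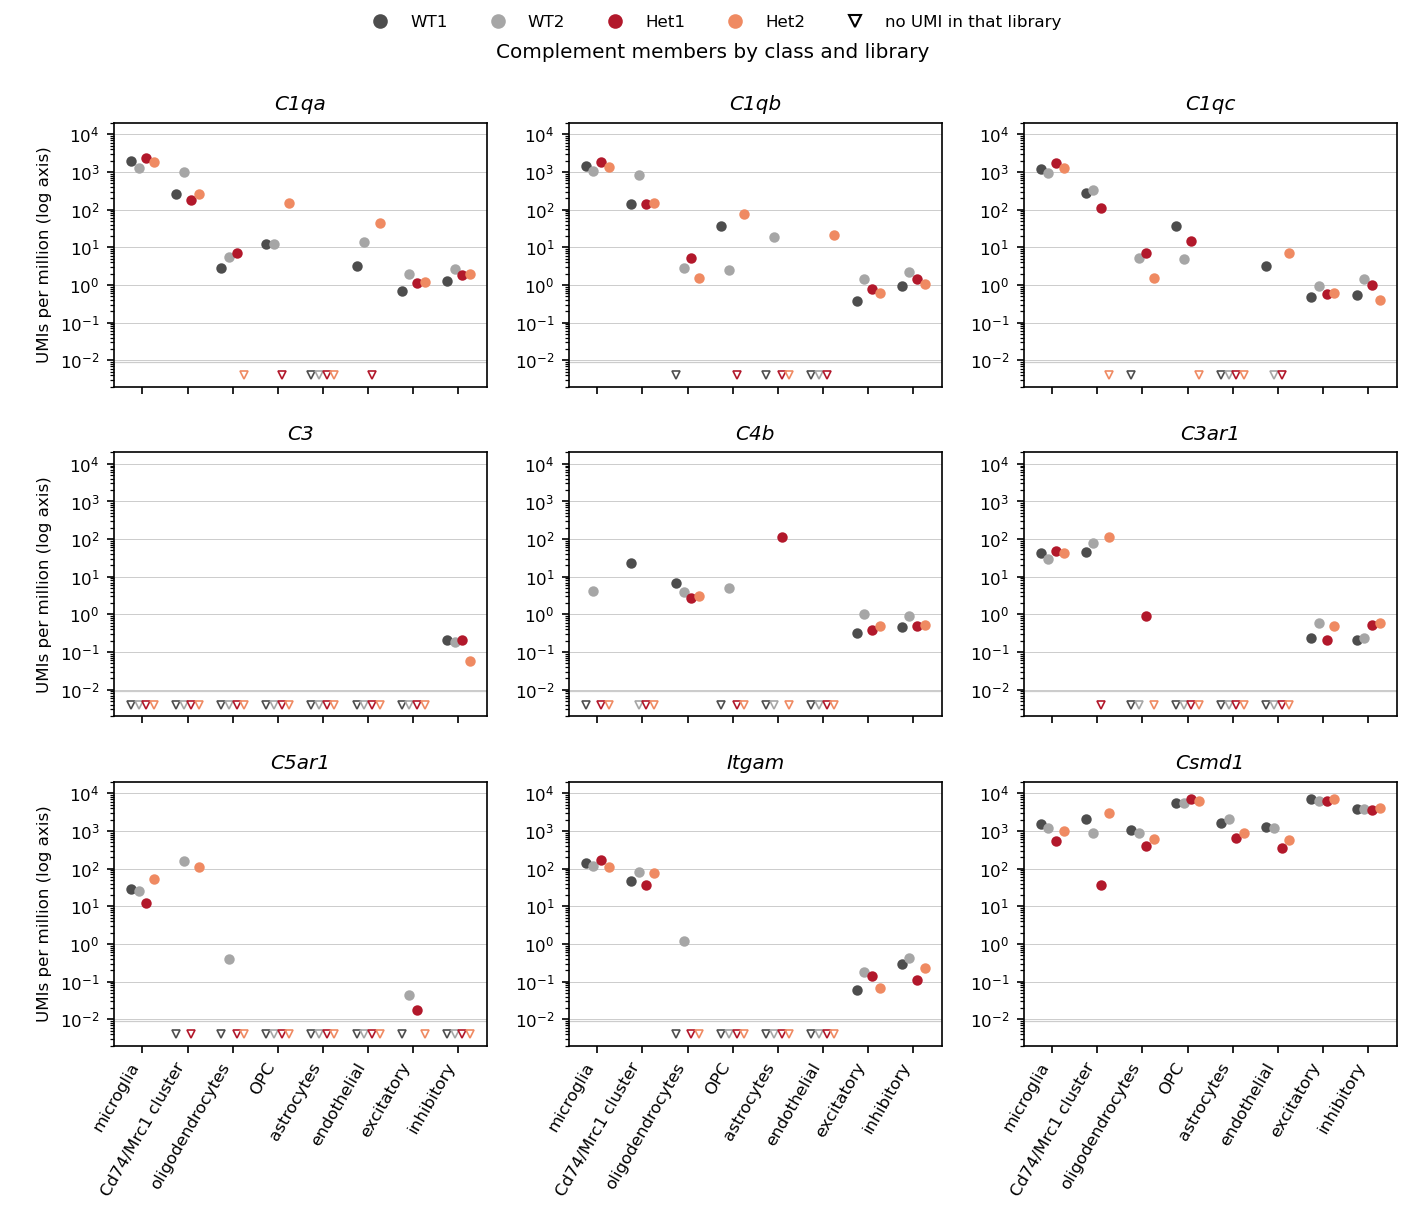
Level of each of the 9 genes in CPM (log axis) in 8 groups of nuclei; each point is 1 library and open triangles mark libraries with no UMI. C1qa stands between 1241 and 2414 CPM in microglia and below 3 CPM in both neuron classes, whereas Csmd1 is highest in excitatory neurons and oligodendrocyte precursors.

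The 3 C1q chains are encoded by neighbouring genes. On chromosome 4 of GRCm38 (GENCODE M21), C1qb lies at chr4:136880129-136886187, C1qc at chr4:136889804-136893065 and C1qa at chr4:136895917-136898803, all on the minus strand, within 18.675 kb. The gaps between the genes are 3.616 kb and 2.851 kb. The promoters of C1qb and C1qc, the C1q genes with an entry in the promoter table, are shown because all 3 chains followed each other across classes. They are the 250 bases before the RefSeq start (GRCm38.p6) on the minus strand, at chr4:136886201-136886450 and chr4:136892915-136893164, and the second window lies in part inside the GENCODE model of C1qc, which starts further upstream. Capitals mark GAGGAA on either strand, the core letters of sites bound by PU.1, a factor known for its role in myeloid cells.
C1qb: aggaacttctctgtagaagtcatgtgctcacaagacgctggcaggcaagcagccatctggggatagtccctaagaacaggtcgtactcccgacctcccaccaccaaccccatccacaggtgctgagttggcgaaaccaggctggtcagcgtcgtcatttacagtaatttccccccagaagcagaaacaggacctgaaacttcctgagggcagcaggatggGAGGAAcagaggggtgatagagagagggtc
C1qc: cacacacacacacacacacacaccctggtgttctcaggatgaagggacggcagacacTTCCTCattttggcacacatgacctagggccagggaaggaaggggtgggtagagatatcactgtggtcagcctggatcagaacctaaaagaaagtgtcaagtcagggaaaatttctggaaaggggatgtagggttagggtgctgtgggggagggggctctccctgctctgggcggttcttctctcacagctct
The match begins 30 bases before the start in C1qb and 193 bases before it in C1qc. Of the 6 genes found in the promoter table, C1qb, C1qc and Itgam held the letters and C3, C3ar1 and C5ar1 did not, against 23.3% of 32851 mouse promoters of the same length. Itgam held them 2 times, and 3.54% of promoters held them 2 or more times. C1qa, C4b and Csmd1 had no entry in the table.

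C1qa, the A chain, stood in microglia at 1944 CPM in WT1, 1241 in WT2, 2414 in Het1 and 1846 in Het2. C1qb stood at 1443, 1066, 1802 and 1377 CPM, and C1qc at 1188, 930, 1726 and 1285 CPM, in the same order. For each chain the order of the libraries ran from WT2, the lowest, to Het1, the highest. The genotypes overlapped for C1qa and C1qb, since WT1 lay above Het2, and did not overlap for C1qc. How many other genes did not overlap was not computed. The totals behind these CPM also hold neuron RNA, put at 26.6, 26.0, 10.98 and 16.5% by the estimate explained with Csmd1. Levels with this RNA left out of the totals were not computed, and its part in the order of the libraries was not tested. Per kb of exon the levels over all microglia were 1797 CPM for C1qa, 1315 for C1qb and 669 for C1qc. Per kb of the whole gene, introns included, they were 647, 236 and 396 CPM, so C1qa led on both scales while the order of the other chains depended on the length used.

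None of the C1q chains passed the adjusted threshold between genotypes. The log2 fold change was 0.41 for C1qa (SE 0.25, 95% interval -0.11 to 0.94, adjusted p = 0.662), 0.34 for C1qb (SE 0.24, interval -0.16 to 0.83, adjusted p = 0.723) and 0.51 for C1qc (SE 0.24, interval 0.02 to 0.995, adjusted p = 0.504). The unadjusted p of C1qc was 0.0435, and the intervals reach from about 0 to nearly 1 on the log2 scale. The means were 1593 ± 497 CPM in WT and 2130 ± 401 in Csf1r+/- for C1qa (SD, n = 2 each). The summed level of the 13 microglia markers ran in parallel, at 15136, 11698, 17404 and 15440 CPM, with 5 markers higher in both Csf1r+/- libraries and none lower in both. Set against those markers, the C1q chains gave 0.302, 0.277, 0.341 and 0.292 UMIs per marker UMI, and the genotypes overlapped. Of the 7 members tested in microglia, 0 were called at an adjusted p under 0.05 by edgeR or by DESeq2, and 2 had an unadjusted p under 0.05 (C1qc and Csmd1). Over all 9257 genes tested there 0.184% were called, all of them lower in Csf1r+/-. At an unadjusted p under 0.05 by edgeR, 261 of these genes were higher and 620 lower.

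**Figure D2:**
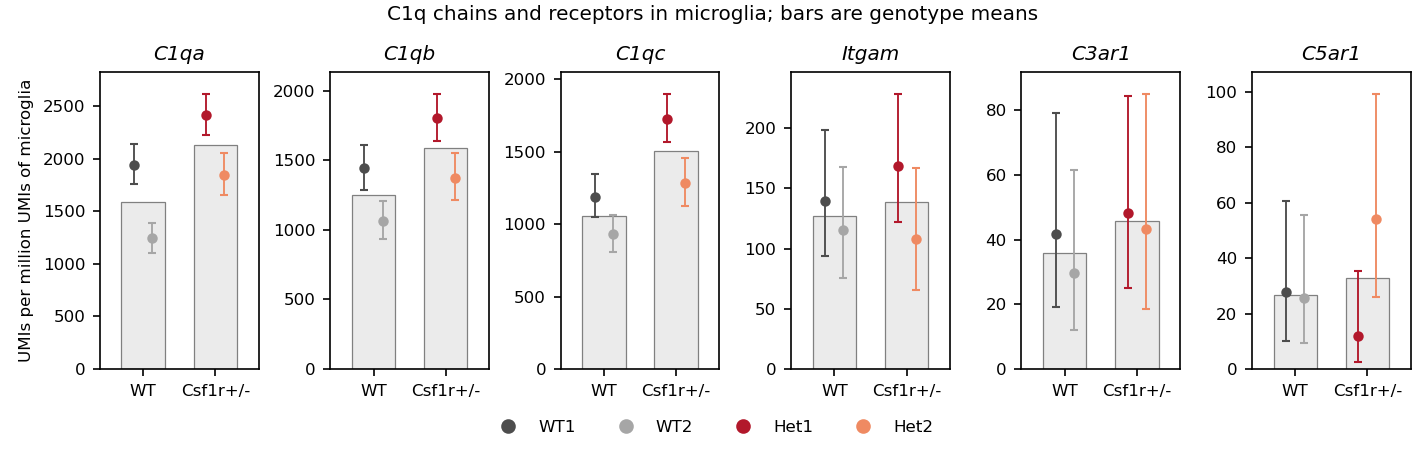
Level in CPM in microglia of the C1q chains and 3 receptor genes; points are libraries with exact 95% Poisson intervals of the counts, which cover counting error only, and bars are the means of the 2 libraries of a genotype. For the C1q chains WT2 is the lowest library and Het1 the highest, and the intervals of C3ar1 and C5ar1, with 3 to 12 UMIs per library, overlap throughout.

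C1q was found in most microglial nuclei. At least 1 chain had a UMI in 93.4% of the 648 nuclei and all 3 chains in 48.5%, with a median of 4 C1q UMIs per nucleus and a highest value of 56. All 3 chains were seen together in 46.1% of microglia in WT1, 39.8% in WT2, 61.7% in Het1 and 45.8% in Het2. Het1 again stood highest and the genotypes overlapped. The share with a C1qa UMI was 77.0, 65.2, 91.0 and 74.6%. After each nucleus was thinned to 1000 UMIs, which kept 112, 124, 135 and 95 microglia, the share with C1qa was 69.6, 62.9, 81.5 and 76.8%, that with C1qb 65.2, 57.3, 70.4 and 70.5%, and that with C1qc 52.7, 54.0, 71.1 and 63.2%. At this fixed depth both Csf1r+/- libraries were above both WT libraries for each chain. The exact two-sided permutation p was 0.333, the smallest that 2 libraries against 2 can give, so this comparison cannot reach 0.05. How many other genes separated the genotypes in this way was not computed. The 1000 UMIs also hold neuron RNA, which the estimate explained with Csmd1 put at 26.6, 26.0, 10.98 and 16.5% of the RNA in all microglia. Its part in these shares was not tested.

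The chains kept nearly the same proportions in every library. Of the C1q UMIs in microglia, C1qa made up 42.5% in WT1, 38.3% in WT2, 40.6% in Het1 and 41.0% in Het2. C1qb made up 30.3 to 32.9% and C1qc 26.0 to 29.0%, where C1qb was slightly lower in both Csf1r+/- libraries (30.3 and 30.5% against 31.5 and 32.9%) and the genotypes overlapped for C1qc. Among the few C1q UMIs of excitatory neurons C1qa also led, at 44.5 to 49.3%.

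Outside microglia C1q was at a low share of nuclei in every large class. C1qa had a UMI in 0.949% of excitatory neurons, 0.989% of inhibitory neurons, 0.931% of oligodendrocytes and 0.887% of endothelial cells, at median depths of 7031, 4404.5, 1825 and 1302 UMIs per nucleus against 1259 in microglia. At 1000 UMIs per nucleus these shares were 0.184, 0.235, 0.506 and 0.312%, against 72.7% of microglia. At this equal depth oligodendrocytes were the highest of the 4, at 0.329% in WT1, 0.521% in WT2, 0.922% in Het1 and 0% in Het2. That order rests on few counts, since C1qa had 24 UMIs in oligodendrocytes and 9 in endothelial cells before thinning. The UMIs of the C1q chains in oligodendrocytes were 2.19 (C1qb) to 3.93 (C1qc) times the neuron RNA estimate, which is explained with Csmd1. That estimate takes each gene's level in all nuclei, so for C1q it holds RNA of microglia too. Whether the C1q UMIs of oligodendrocytes are free RNA was not tested. C1qa had no UMI in 56 astrocytes, which allows up to 5.36% of nuclei with a UMI. Limits of this kind concern nuclei with a UMI at the depth reached, not nuclei that express the gene. Of the 3065 C1qa UMIs in all nuclei, 53.9% were in microglia and 29.98% in unnamed clusters. Most of the latter lay in a cluster of 357 nuclei (661 UMIs) that carried all 13 microglia markers and 7 neuron markers, of which 80.7% had high doublet scores. In a cluster of 71 nuclei with 12 microglia and 12 oligodendrocyte markers there were 102. The cluster of 39 nuclei led by Cd74 and Mrc1 carried 6 of 6 border macrophage and 11 of 13 microglia markers and stayed unnamed. It held 35 C1qa UMIs, and its level of 181 to 975 CPM was below that of microglia in each library.

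Summed over all nuclei, C1qa stood at 5.96 CPM in WT1, 9.76 in WT2, 10.6 in Het1 and 6.75 in Het2. WT2 and Het1 were the high libraries, so the genotypes overlapped, and the log2 fold change was 0.23 for C1qa (SE 0.28, adjusted p = 0.9998), 0.19 for C1qb (SE 0.33) and 0.26 for C1qc (SE 0.33). These sums also carry the share of microglia, which was 1.10, 1.06, 1.74 and 1.27% of nuclei. That share leaves out the unnamed clusters with microglia markers, whose C1q is in the sums. The cluster of 357 nuclei held 64, 177, 70 and 46 by library, and that of 71 nuclei held 8, 48, 8 and 7. WT2 was the highest library in both. Fewer microglia and less C1q RNA per nucleus cannot be told apart in such sums. All 9 members were tested in all nuclei and 0 were called by edgeR or DESeq2, with 0 at an unadjusted p under 0.05. There 0% of 23027 genes were called and 0.214% passed the study's threshold. This is an unadjusted p under 0.01, for genes detected in 10% or more of the nuclei of WT or of Csf1r+/-. The study set it on edgeR's likelihood-ratio test, in its own clusters and with a further mouse of each genotype. Here it was set on quasi-likelihood p-values. In all nuclei 4 genes higher and 12 lower passed it, against 7 and 33 with the likelihood-ratio test.

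Among the receptors, Itgam (chr7:128062640-128118491), the alpha chain of complement receptor 3, stood in microglia at 139 CPM in WT1, 115 in WT2, 169 in Het1 and 108 in Het2. The Csf1r+/- libraries enclosed the WT libraries, and the log2 fold change was 0.15 (SE 0.31, interval -0.49 to 0.80, adjusted p = 0.928). Itgam had a UMI in 16.2% of microglia, against 0.0900% of excitatory neurons. C3ar1 (chr6:122847138-122856161), the receptor of C3a, stood at 41.8, 29.9, 48.3 and 43.2 CPM. Those levels rest on 9, 7, 12 and 8 UMIs, and the log2 fold change of 0.36 (SE 0.51, interval -0.69 to 1.41, adjusted p = 0.890) covers changes in both directions. C5ar1 (chr7:16246743-16259540), the receptor of C5a, had 6, 6, 3 and 10 UMIs, or 27.8, 25.6, 12.1 and 54.0 CPM. Here the Csf1r+/- libraries were both the lowest and the highest, and the log2 fold change was 0.19 (SE 0.67, interval -1.19 to 1.57, adjusted p = 0.964).

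The receptors differed in the share of their UMIs found in microglia. Of 52 C5ar1 UMIs in all nuclei, 25 were in microglia and 3 in neurons, and none was found in 451 endothelial cells, which allows up to 0.665% of nuclei with a UMI. The 39 nuclei led by Cd74 and Mrc1 held 5 more, beside 6 UMIs of C3ar1 and 6 of Itgam. Of 252 Itgam UMIs, 119 were in microglia, 24 in excitatory and 22 in inhibitory neurons. Only 17.4% of the 207 C3ar1 UMIs were in microglia, while 84 were in excitatory neurons, at a class level of 0.369 CPM against 40.7 in microglia. In inhibitory neurons C3ar1 had 5, 5, 10 and 10 UMIs. The C3ar1 level there was 0.211, 0.233, 0.538 and 0.574 CPM, higher in both Csf1r+/- libraries, with a log2 fold change of 1.31 (SE 0.58, unadjusted p = 0.0461, adjusted p = 0.9999), which did not pass the test. At 1000 UMIs per nucleus the direction was the opposite, with 2, 3, 0 and 0 nuclei left with a C3ar1 UMI. In excitatory neurons its libraries were mixed, at 0.238, 0.576, 0.215 and 0.506 CPM.

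C3 (chr17:57203970-57228136), the component on which all complement pathways converge, was hardly detected. It had no UMI in 648 microglia, which allows up to 0.463% of nuclei with a UMI, nor in 56 astrocytes, where up to 5.36% is allowed. Of its 15 UMIs, 14 were in inhibitory neurons and 11 of these in the cluster led by Otx2os1 and Ebf1. The C3 level in inhibitory neurons was 0.211, 0.186, 0.215 and 0.0574 CPM from 5, 4, 4 and 1 UMIs. Excitatory neurons, with more nuclei and deeper counts, had 0 C3 UMIs, which allows up to 0.0112% of nuclei with a UMI. The log2 fold change in inhibitory neurons was -0.50 (SE 0.84, interval -2.37 to 1.37), so no genotype difference was detectable at this depth.

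C4b (chr17:34728380-34743882), which encodes the C4 protein of the classical pathway, had 226 UMIs in all. C4b has a near-identical neighbour, C4a, which was not analysed here, and reads shared between them are uncertain. In oligodendrocytes C4b stood at 6.97 CPM in WT1, 4.01 in WT2, 2.67 in Het1 and 3.02 in Het2, from 5, 10, 3 and 2 UMIs. Both Csf1r+/- libraries were below both WT libraries on these few counts, and the log2 fold change of -0.69 (SE 0.81, interval -2.41 to 1.04, adjusted p = 0.9202) did not pass the test. The 20 UMIs were 26.5 times the neuron RNA estimate for the same nuclei, which is explained with Csmd1 and takes the level in all nuclei. In excitatory neurons C4b was lower, at 0.313, 0.997, 0.376 and 0.506 CPM, with WT2 the highest library and a log2 fold change of -0.44 (SE 0.54, adjusted p = 0.9999). Microglia held 1 C4b UMI and endothelial cells 0, while the 56 astrocytes held 3, all in Het1.

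Csmd1 (chr8:15892537-17535586), a gene of 1643 kb, accounted for 2157426 UMIs, of which 71.5% were in excitatory and 14.3% in inhibitory neurons. Its level in excitatory neurons was 7052 CPM in WT1, 6409 in WT2, 6400 in Het1 and 7120 in Het2, and in inhibitory neurons 3925, 3787, 3508 and 3959 CPM. The Csf1r+/- libraries were the lowest and the highest in both classes. Oligodendrocyte precursors, 148 nuclei in all, stood at 5662, 5540, 7206 and 6266 CPM as measured. That range overlapped that of excitatory neurons and lay above that of inhibitory neurons. The neuron RNA estimate, explained below, put such RNA at 54.6, 35.5, 26.2 and 16.7% of the RNA in these precursors. It put 3245, 1860, 1431 and 1034 CPM of Csmd1 there. Of these nuclei 20.3% had high doublet scores, and the place of the precursors without neuron RNA was not tested. Both Csf1r+/- libraries were higher in the precursors, a difference that was not tested because Het2 held only 7 of these nuclei. Every oligodendrocyte precursor nucleus had a Csmd1 UMI, as did 99.8% of excitatory neurons.

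In neurons Csmd1 was close to equal between the genotypes. The log2 fold change was 0.06 in excitatory neurons (SE 0.20, interval -0.39 to 0.52, adjusted p = 0.9999) and -0.04 in inhibitory neurons (SE 0.13, interval -0.33 to 0.25, adjusted p = 0.9999), and 0.11 over all nuclei (SE 0.20, interval -0.36 to 0.59). Of the members tested, 0 of 7 in excitatory and 0 of 8 in inhibitory neurons were called by edgeR or DESeq2, with 0 and 1 at an unadjusted p under 0.05 (C3ar1 in inhibitory neurons). Over all genes tested, 0% of 21378 in excitatory neurons were called and 0.510% passed the study's threshold, and in inhibitory neurons 0% of 19801 and 0.477%. At an unadjusted p under 0.05, 154 genes were higher and 560 lower in excitatory neurons, and 189 and 347 in inhibitory neurons.

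Csmd1 varied far more between kinds of neuron than between mice. Across 22 excitatory clusters its mean level ran from 1086 to 8023 CPM (median 6289), and across 11 inhibitory clusters from 1364 to 4745 CPM (median 3600). The median SD over the 4 libraries was 6.64% of a cluster's mean. The highest cluster, led by Cobll1, Rxfp1 and Nr4a2, stood at 8183, 7834, 7626 and 8448 CPM, and its libraries overlapped those of the next clusters in the order. In inhibitory clusters the level was 4355, 4698, 3921 and 4584 CPM in the one led by Sst and Npy, and 2549, 2103, 2012 and 2974 CPM in the one led by Ndnf, with no overlap between them.

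**Figure D3:**
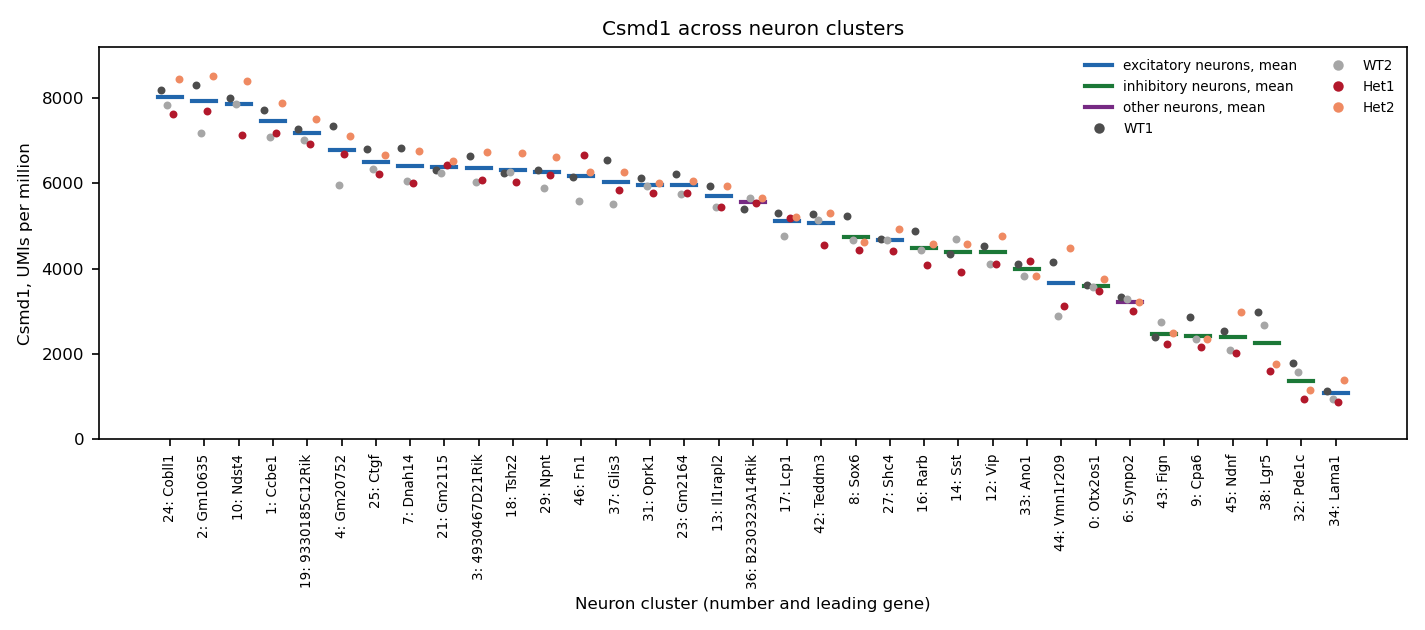
Csmd1 in CPM in 35 neuron clusters, ordered by mean; bars are means over libraries, coloured by class, and points are libraries. Means fall from 8023 CPM in the cluster led by Cobll1 to 1086 CPM in the cluster led by Lama1, and in most clusters the 4 libraries lie close together.

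By cluster, the genotype contrast of Csmd1 was positive in 23 and negative in 12 of 35 clusters, with a median log2 fold change of 0.03 and 0 clusters called by edgeR. Across the genes of these clusters together 0.0163% of tests were called and 0.890% passed the study's threshold. A pair of inhibitory clusters had an unadjusted p under 0.05. Without this pair, which was picked by these p-values, the range was -0.13 to 0.15 in the other 33. In the cluster led by Lgr5, Pde1c and Stac, 234 nuclei, Csmd1 stood at 2976 CPM in WT1, 2669 in WT2, 1604 in Het1 and 1766 in Het2. Both Csf1r+/- libraries were lower there, with a log2 fold change of -0.79 (SE 0.20, unadjusted p = 0.00175, adjusted p = 0.396), which passed the study's threshold only. In the cluster led by Pde1c and Pde5a it was -0.70 (SE 0.28, unadjusted p = 0.0227, adjusted p = 0.9999). These are among the 3 lowest levels of Csmd1 in neurons.

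In endothelial cells, oligodendrocytes and microglia Csmd1 was lower in both Csf1r+/- libraries. It stood in endothelial cells at 1261 CPM in WT1, 1159 in WT2, 345 in Het1 and 558 in Het2, with no overlap and a log2 fold change of -1.43 (SE 0.26, interval -1.96 to -0.91, adjusted p = 0.00974). This was the only member called in any class, out of 1 tested there, where 0.824% of 8982 genes were called, all of them lower in Csf1r+/-, and 6.39% passed the study's threshold. In oligodendrocytes Csmd1 stood at 1057, 896, 406 and 603 CPM, with a log2 fold change of -0.89 (SE 0.20, unadjusted p = 0.00042, adjusted p = 0.149). In microglia it stood at 1494, 1194, 527 and 1015 CPM, with a log2 fold change of -0.82 (SE 0.26, unadjusted p = 0.00491, adjusted p = 0.199). Both passed the study's threshold and not the adjusted one. At that threshold 8.12% of genes passed in microglia and 5.09% in oligodendrocytes. In oligodendrocytes 0% of 12929 genes were called and 0 of 5 members by edgeR or DESeq2, with 1 member at an unadjusted p under 0.05. Over all genes there 221 were higher and 759 lower at that unadjusted p.

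**Figure D4:**
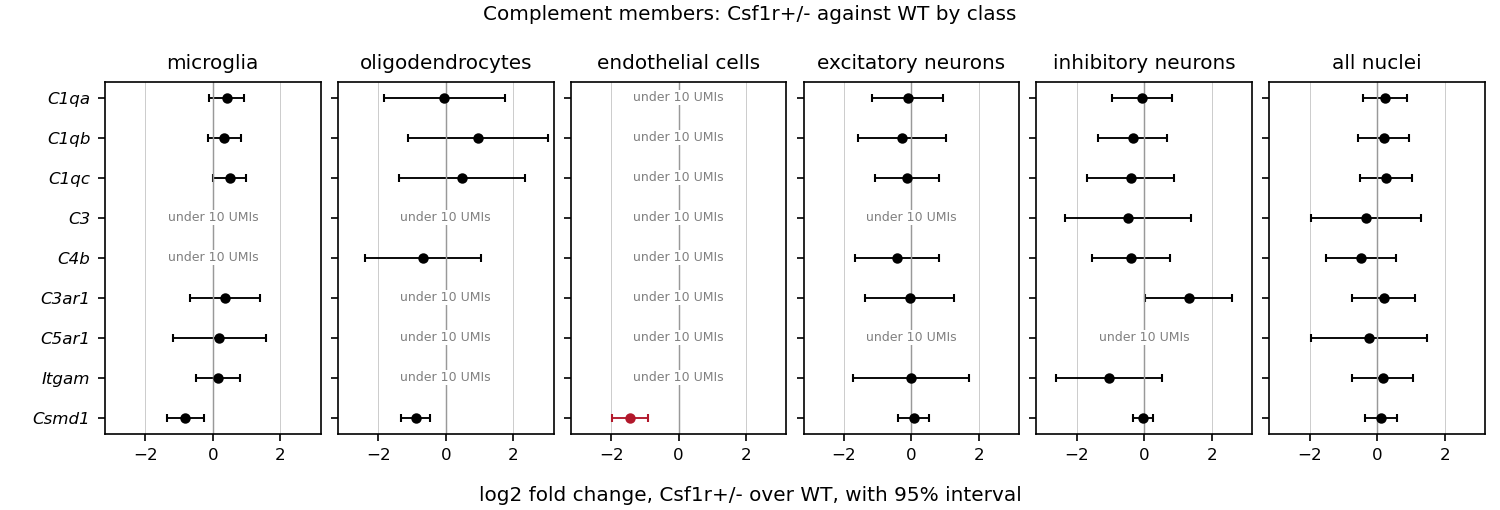
Log2 fold change of each member, Csf1r+/- over WT, in 5 classes and in all nuclei, with 95% intervals; members with fewer than 10 UMIs in a class were not tested. The red point, Csmd1 in endothelial cells at -1.43, is the only call, and the C1q chains in microglia lie at 0.34 to 0.51 with wide intervals.

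In these 3 classes the summed neuron markers were also lower in both Csf1r+/- libraries. The summed level of 7 neuron markers was 4024 CPM in WT1, 4862 in WT2, 1281 in Het1 and 1966 in Het2 in endothelial cells, with 6 of 7 markers lower in both Csf1r+/- libraries. It was 4371, 4401, 1907 and 2591 CPM in microglia (6 of 7 lower) and 3442, 3123, 1917 and 1798 CPM in oligodendrocytes (7 of 7 lower), and none of the 7 was at 0. The share of neuron RNA in a class was estimated from the level of each marker there relative to that in all nuclei of the library. The median over the 7 markers was used. The neuron RNA estimate of a gene was this share of its level in all nuclei, which are mostly neurons but include every class. For genes of other classes it is thus not RNA of neurons alone. By this estimate such RNA was 26.6, 26.0, 10.98 and 16.5% of the RNA in microglia, and 23.6, 27.8, 8.82 and 13.8% in endothelial cells.

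The Csmd1 level measured in microglia, oligodendrocytes and endothelial cells was below the neuron RNA estimate in every library. Whether neuron RNA accounts for the genotype difference was not tested. Measured over estimated, the ratio was 0.946, 0.877, 0.878 and 0.995 in microglia, 0.811, 0.775, 0.504 and 0.869 in oligodendrocytes and 0.898, 0.796, 0.716 and 0.651 in endothelial cells. After subtraction of the estimate Csmd1 had under 10 UMIs left in each of these classes and could not be tested. In oligodendrocyte precursors the ratio was 1.74, 2.98, 5.04 and 6.06, above 1 in every library, and in astrocytes it was 2.17, 1.28, 0.611 and 0.793. When classes were instead set by marker counts of single nuclei, the log2 fold change of Csmd1 was -0.53 in endothelial cells (adjusted p = 0.543), -0.20 in oligodendrocytes and -0.05 in microglia. That rule set no limit on neuron markers and gave 228, 253, 243 and 184 microglia. The level of Csmd1 in microglia was higher under it, as given in the last section. The endothelial call was also lost without Het1 (-1.13, adjusted p = 0.231). Csmd1 in microglia passed the adjusted threshold without WT2 (-1.01, adjusted p = 0.00816) or without Het2 (-1.35, adjusted p = 0.0102), and in oligodendrocytes without WT2 (-1.06, adjusted p = 4.26e-06).

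**Figure D5:**
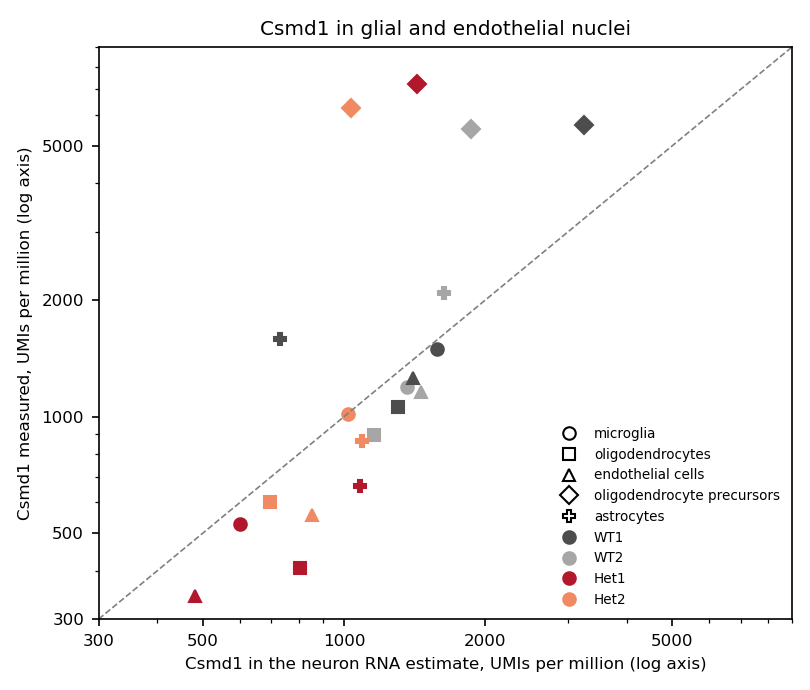
Csmd1 measured in CPM (vertical, log axis) against its neuron RNA estimate (horizontal, log axis), for 5 classes and 4 libraries. The dashed line marks equality. Microglia, oligodendrocytes and endothelial cells lie on or below the line, at ratios of 0.504 to 0.995, and oligodendrocyte precursors lie above it.

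A wider list, with the 9 members among its genes, held classical, lectin, alternative and terminal components, receptors, regulators and C1q-related secreted proteins. The last of these share the C1q domain and are no part of the cascade. Of the list, 67 genes were in the matrices. In microglia 23 had at least 10 UMIs and were tested. These were 3 of 7 classical pathway genes (the C1q chains), 8 of 12 receptors, 11 of 20 regulators and 1 of 8 C1q-related genes. None came from the lectin, alternative or terminal pathways, of which 3 of 9, 1 of 4 and 1 of 7 genes had a UMI. Cfb, Cfd, Hc, C6 and C9 were among those with none. No gene of the list was called in microglia, 12 were higher and 11 lower in Csf1r+/-, and the median log2 fold change was 0.07 against 0.03 over all genes tested. Its sign was not stable, since the median was -0.22 without Het2, 0.17 without WT1 and -0.32 with genes of at least 1 count. Csmd1 alone passed the study's threshold, and at an unadjusted p under 0.05 C1qc was higher and Csmd1, Megf10, Sez6l and Sez6l2 were lower. The last 3, named after their values were seen, each had a UMI in under 10% of microglia. At that unadjusted p 261 of all 9257 genes tested in microglia were higher and 620 lower.

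By CPM the leading genes of the list in microglia were Csmd3, C1qa and C1qb. Csmd3, a large relative of Csmd1, stood at 4083, 2682, 4776 and 3876 CPM. Its counts were 12.3 times the neuron RNA estimate, unlike those of Csmd1, and its log2 fold change was 0.35 (SE 0.26, adjusted p = 0.744).

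In oligodendrocytes 28 genes of the list were tested and 0 called, with a median log2 fold change of -0.08 against -0.01 over all genes. With neuron RNA subtracted the median was 0.15, over the 23 genes that still had enough counts, so the 2 medians cover different genes. Csmd3, Csmd1 and Megf10 led there by CPM. Csmd3 stood at 1592, 1538, 1683 and 1616 CPM, slightly higher in both Csf1r+/- libraries, and was not called (log2 fold change 0.15, SE 0.17). In endothelial cells 17 were tested, with a median of -0.82 against 0.00 over all genes, and 11 of the 17 were lower. The summed level of the 7 neuron markers was lower in both Csf1r+/- libraries too, as given above. The median was -0.0087 with neuron RNA subtracted, over the 10 genes that still had enough counts. With classes from marker counts it was -0.29 over 20 genes. These medians cover different genes, so they do not show how the same genes moved. Csmd1 was called and Csmd3 passed the study's threshold (431, 416, 184 and 300 CPM, log2 fold change -0.82, SE 0.29, unadjusted p = 0.00886, adjusted p = 0.261), its counts being 1.13 times the neuron RNA estimate. Cd93, an endothelial surface protein first described as a C1q receptor, was the third by CPM, at 217, 198, 215 and 372 CPM.

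In neurons 55 genes of the list were tested in the excitatory and 53 in the inhibitory class, and 0 were called in either. The median log2 fold change was -0.07 and -0.14 against 0.00 over all genes in both, with 35 of 55 and 34 of 53 genes lower. Without WT2 the excitatory median was 0.0092, with 29 genes higher and 26 lower, and without WT1 the inhibitory median was -0.042. Csmd1, Csmd3 and Csmd2 were the 3 highest by CPM in both classes. Csmd2 stood in excitatory neurons at 500 CPM in WT1, 567 in WT2, 438 in Het1 and 504 in Het2, with a log2 fold change of -0.11 (SE 0.14).

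The genes most like each member across 47 clusters, by Pearson's r of log2(CPM + 1) on the mean of the 4 libraries, were microglia genes for the C1q chains. They included Gm2245 (r = 0.932) and Selplg (0.930) for C1qa, Tmem119 (0.936) and Mlph (0.931) for C1qb, and Tmem119 (0.959) and Selplg (0.937) for C1qc. Tmem119 and Selplg were among the markers that defined the class. For Itgam they were Clec4a3 (0.942), Clec5a (0.937) and Ms4a6d (0.932), for C3ar1 Trim30b (0.924), 4930469K13Rik (0.912) and Bcl2a1b (0.906), and for C5ar1 Gm38843 (0.999), C5ar2 (0.998) and AU022793 (0.997). For Csmd1, whose pattern is graded over neurons, the values were lower, at 0.894 for Gm26848, 0.892 for 5330417C22Rik and 0.889 for Gm47523. The clusters share libraries and depth, and most of them hold no microglia, so these values describe the clusters and are given with no test. C3 and C4b were below 10 CPM in every cluster and were not compared.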

How the data were processed

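Nuclei of 4 brains were measured with the droplet-based 10x Genomics 3′ platform. The authors aligned the reads to mm10 with Cell Ranger (submitters' processing notes; version 5.0.0 in the matrix headers) and deposited filtered matrices of whole-number UMI counts per gene and nucleus. Whether intronic reads were counted is not given in the sources used here. One more mouse of each genotype that the study describes was not analysed here. Libraries held 89436507 to 112226479 UMIs.

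The study's filters were applied: 500 to 50000 UMIs, over 200 genes and under 5% mitochondrial UMIs. Kept nuclei were clustered with leidenalg 0.10.2 on a graph of shared neighbours from scikit-learn 1.9.0. Settings were 3000 variable genes without the complement genes, 30 components, 20 neighbours and Leiden resolution 1. Values were centred and scaled within each library before the components were computed. Non-neuronal nuclei were clustered a second time (2000 genes, 20 components, 15 neighbours). A class needed at least 3 of its markers, and a glial cluster with 5 or more neuron markers stayed unnamed. This naming rule was revised after the clusters were seen. A cluster with high Scrublet scores (scanpy 1.11.5) in over 50% of its nuclei also stayed unnamed, so its nuclei were in no class tested. The largest such cluster held 1290 nuclei with neuron markers, 94.4% of them with high scores. Single nuclei with high scores were removed only in an alternative.

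Each class was summed within a library and the sums were tested with edgeR 4.0.16 (quasi-likelihood, TMM, R 4.3.3) for genes with at least 10 counts. A call was a Benjamini-Hochberg adjusted p under 0.05 over all genes of the class, and every test was two-sided. Oligodendrocyte precursors (7 nuclei in Het2) and astrocytes (5 in Het2) were under the minimum of 10 nuclei per library, and no cluster was named mural cells, so these were not tested. On simulated counts with 200 changed genes, 2-fold changes were called for 49% of genes in microglia, 37% in endothelial cells and 53% in excitatory neurons, and 4-fold changes for 95, 96 and 96%. The changed genes were drawn only from genes with counts well above those of C3ar1 and C5ar1 in microglia. These shares therefore do not hold for members with few counts. The simulation used the fitted trend of spread against level rather than each gene's own spread, and equal neuron RNA in both genotypes. The shares may thus differ in the real data. Intervals and limits for counts of 0 (3 counts) cover counting error only. The edgeR p-values rest on the spread between 2 mice per genotype, together with spread that edgeR shares across the genes of a class. The SE was taken as the size of the log2 fold change over the square root of the test statistic.

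The members and lists were chosen with earlier results of these data known. The text names the 9 members, Csf1r, the listed genes past a threshold or the 3 of highest CPM in a class, and the 3 genes most like each member, apart from genes that are not reported here. Alternatives were DESeq2 1.42.0, RLE size factors, a likelihood-ratio test, low-count filters, a replicate block, a higher UMI minimum, doublet scores, resolution 0.5, classes from 4 markers per nucleus, subtracted neuron RNA and leaving out each library.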

Additional observations from a re-analysis of the deposited data

Results flagged for a closer look

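The genotype contrast of Csf1r went in opposite directions in microglia and in neurons. In microglia its log2 fold change was -0.54 (SE 0.22), with both Csf1r+/- libraries below both WT libraries. In excitatory neurons it was 2.37 (SE 0.50, unadjusted p = 0.00154, adjusted p = 0.9999 by edgeR), at 0.358 CPM in WT1, 1.42 in WT2, 3.81 in Het1 and 4.48 in Het2, from 24, 64, 213 and 266 UMIs. In inhibitory neurons it was 1.62 (SE 0.30, unadjusted p = 0.000333, adjusted p = 0.9999), at 1.31, 1.86, 5.32 and 4.31 CPM. The effect differed by 2.90 between excitatory neurons and microglia and by 2.16 between inhibitory neurons and microglia on the log2 scale. The difference itself was not tested, and counts per gene do not show from which of the 2 alleles the transcripts came. The summed level of the 13 microglia markers in excitatory neurons, 44.0, 69.7, 49.8 and 67.8 CPM, did not separate the genotypes.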

How the results depend on the processing

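Across 19 contrasts of a member in a class and 269 alternative values, 242 kept their direction and their side of the threshold. The C1q chains in microglia stayed above 0 in 48 of 48 values and were called in 0, at 0.11 to 0.79 for C1qa (adjusted p 0.0745 to 0.998), 0.11 to 0.59 for C1qb and 0.25 to 0.71 for C1qc. Members called in microglia were 0 to 1 when a library was left out, 1 with genes of at least 1 count and 1 with at least 1000 UMIs per nucleus. In oligodendrocytes they were 0 to 1 when a library was left out, 1 with genes of at least 1 count and 1 with the likelihood-ratio test. In endothelial cells they were 0 to 1 when a library was left out and 0 with classes from marker counts. With neuron RNA subtracted no member could be called there, since Csmd1 had too few counts left to be tested. In each case the member was Csmd1, and the cause was not tested. Leaving out each library gave log2 fold changes of -0.15 to 0.55 (C1qa), -0.29 to 0.57 (C1qb), -0.25 to 0.64 (C1qc) and -0.027 to 0.29 (Csmd1) in all nuclei, -0.26 to 0.41 (Itgam) and -1.11 to 0.98 (C5ar1) in microglia, -1.04 to 0.48 (C4b) and -0.075 to 0.21 (Csmd1) in excitatory neurons, and -1.68 to 0.12 (C3) and -0.13 to 0.046 (Csmd1) in inhibitory neurons. In microglia Itgam turned to -0.074 with neuron RNA subtracted and C5ar1 to -0.43 at 1000 UMIs, and without thinning the shares with Itgam and C5ar1 turned to 1.56 and 1.11 percentage points higher in Csf1r+/-. Of 18 further contrasts plotted only, 16 changed sign under at least 1 alternative and 0 were ever called. Of 56 levels taken with high doublet scores left out or with classes from marker counts, 10 moved. With classes from marker counts the mean level in microglia went from 1861 to 648 CPM for C1qa and from 1058 to 3950 for Csmd1. Genes called over all genes ran from 0 (resolution 0.5) to 177 (without Het2) in microglia around 17, from 0 (neuron RNA subtracted) to 231 (without WT1) in endothelial cells around 74, and from 0 up to 193 (without WT2) in oligodendrocytes, 205 (without WT1) in excitatory neurons, 248 (without WT1) in inhibitory neurons and 122 (without WT1) in all nuclei. The labels number mice 1 and 2 in each genotype, but same-numbered libraries deviated together only weakly (correlations -0.00939 to 0.224), so the numbers were not taken as pairs. With a replicate block 1 member was called in oligodendrocytes (Csmd1, -0.90, adjusted p = 0.000877), no other call changed, and genes called rose in oligodendrocytes from 0 to 7 higher and 147 lower and in endothelial cells from 74 to 208. DESeq2 called 12 genes in excitatory neurons, and the likelihood-ratio test 146 in microglia and 8 in inhibitory neurons. Depth limited C3, C4b, C3ar1 and C5ar1, each with under 15 UMIs per library in every non-neuronal class.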
